A study of Drosophila melanogaster with 2 samples.

Results

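The regions described are 827 of the CG18011-GFP peaks kept by the authors after thresholding on the irreproducible discovery rate (IDR, a measure of how well replicates rank the same peaks). That list holds 329 strong peaks at or above a limit of signal and 2961 weaker ones under it, and 1945 of its summits lie within 500 bp of a protein-coding start site. The members were chosen by 3 conditions: a signal under the limit, a summit within 500 bp of a protein-coding start site, and no divergent protein-coding partner. A partner is a protein-coding start site within 1000 bp on the other strand that is transcribed away, and a peak was kept only when no gene with a start site within 500 bp of its summit had one. They are called the weaker unidirectional peaks. Signal, rank in the list and the 500 bp window chose these peaks, so those values are given as a description and carry no test.

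CG18011 encodes a C2H2 zinc finger protein of Drosophila melanogaster. Chromatin came from whole embryos of mixed sex, 0 to 24 h old, of a transgenic line that carries CG18011 with GFP at its C terminus, and the fusion protein was recovered with an antibody against GFP from sonicated chromatin of 200 to 800 bp. Biological replicates 1 and 2 gave 1 library each and form 1 group (n = 2), with no other condition, and no control library was analysed here. All tissues and stages of the embryo are pooled, and the labels do not say whether the line also keeps an untagged copy of the gene. How many reads the libraries hold is not known from the labels or files.

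Many fly genes lie head to head with a neighbour, so that a single stretch of DNA serves as promoter in both directions, while at a unidirectional promoter only a single coding gene starts. Fly core promoters are known for a set of short sequence elements. The TATA box and the initiator position RNA polymerase II at many developmentally regulated genes, and GAGA repeats are bound by the GAGA factor (Trl), which keeps chromatin open at genes with paused polymerase. The DNA replication-related element (DRE), bound by DREF, and Ohler motif 7 are typical of housekeeping genes.

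The letters around some summits show what the results below turn on. All coordinates are dm6, sequences were read from the RefSeq genome of that build, and each line runs 5′ to 3′ on the strand named. The first pair shows bases 60 bp to each side of the summit at 2 of the 3 members of the highest signal whose window touches no exon, on the strand of the gene. Capitals mark any match to the 15 promoter motifs that were searched, and both windows are poor in them. The moody window, on the minus strand at chrX:2050223-2050343, holds the initiator letters TCAGTT on each strand. The Fhos window, on the plus strand at chr3L:8766113-8766233, holds none of the motifs.
moody: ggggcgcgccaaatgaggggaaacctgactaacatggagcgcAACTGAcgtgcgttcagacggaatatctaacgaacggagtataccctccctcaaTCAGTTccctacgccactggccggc
Fhos: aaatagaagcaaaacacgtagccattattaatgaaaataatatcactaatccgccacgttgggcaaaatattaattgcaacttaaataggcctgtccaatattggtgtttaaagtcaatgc

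The next set gives 30 bases around matches to the motifs whose share differed from comparison peaks, at strong holders, with the match in capitals. The GAGA repeat (GAGAGAG) is shown at CG1907 (chr3R:29618922-29618951, minus strand), bun (chr2L:12461304-12461333, minus strand) and Hex-A (chrX:9585627-9585656, minus strand). The DRE (TATCGATA) is shown at eEF1gamma (chr3R:29220120-29220149, plus strand) and EMC4 (chr3L:22868295-22868324, plus strand), and Ohler motif 7 (CATCNCTA) at jigr1 (chr3R:25646955-25646984, minus strand). The TATAAA match is shown at Fhos (chr3L:8766063-8766092, plus strand).
CG1907, GAGA: aggtgtggtaaGAGAGAGtataaaatggta
bun, GAGA: cactgcgcaatGAGAGAGcgcactctcttt
Hex-A, GAGA: agagagggggcGAGAGAGtggctatgaatg
eEF1gamma, DRE: ggcctaggaaaTATCGATAtatcgccgtaa
EMC4, DRE: tggcaccagggTATCGATAggcagttacga
jigr1, motif 7: attcaattgcaCATCTCTAgcacacagcca
Fhos, TATA: aagaatacattTATAAAtgtcagcaacacc

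The last set gives members that hold CAACACTG or CACAGTGG, the words of 8 bases other than runs of A and T that stood out when words were ranked in the members. These were picked after their values had been seen. They are aligned on the word, in capitals, at RpL23A (chr3L:1668733-1668762, plus strand), lft (chr2L:10364431-10364460, plus strand), RpL17 (chrX:6744350-6744379, minus strand), CG3842 (chrX:6340826-6340855, plus strand), RapGAP1 (chr2L:7530626-7530655, plus strand), mrt (chr3R:27281121-27281150, plus strand) and CG31808 (chr2L:16716374-16716403, minus strand).
RpL23A: cagtgcgtttggCAACACTGctgcggcact
lft: gccaacagttggCAACACTGcggcacagta
RpL17: cgcttcgctttgCAACACTGttagatcttg
CG3842: aaaaatgtttggCAACACTGcgtatgagtg
RapGAP1: ctctgccaacgCACAGTGGgccagacacaa
mrt: accaagattcgCACAGTGGttgggggttgt
CG31808: tctgcatcgtgCACAGTGGgagaaaagaag

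The pooled signal of the weaker unidirectional peaks, on the scale that the authors deposited, ran from 178.9 to 848.5. Its median was 267.8, with quartiles of 212 and 385. The nearest start sites belonged to 758 genes, and 783 protein-coding genes had a start site within 500 bp of a summit. The median width was 416 bp. At the upper limit no gap set them apart: Sox14, al and moody had 848.5, 846.5 and 844.2, while CG8036, bbx and CG11857, just above the limit, had 852.1, 856.6 and 857.1. At the lower end, tws, N and CG15561 had 179.3, 179.03 and 178.9, while the next pooled peaks outside the IDR list, at CG3556, CG11110 and Idgf6, had 178.78, 178.76 and 178.7.

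The strongest members lay at genes of many kinds. Because replicate 2 has larger values throughout, each library was divided by its median over all IDR peaks, 64.6 in replicate 1 and 222.8 in replicate 2, and the result is called relative signal. Sox14, an HMG-box transcription factor, had 2.59 in replicate 1 and 3.05 in replicate 2 with its summit 256 bp upstream. The homeodomain gene al had 2.62 and 3.08, 25 bp upstream, and moody, a G protein-coupled receptor of the glial blood-brain barrier, 3.43 and 2.81, 163 bp upstream. Sox14 and al were higher in replicate 2 and moody in replicate 1. The formin gene Fhos had a mean relative signal of 2.88 ± 0.0638, CG1907 2.88 ± 0.00728 and the DnaJ-type chaperone gene mrj 2.88 ± 0.233 (SD, n = 2 each). CG31612 had 3.04 ± 0.240, CG1142 2.89 ± 0.163 and CG1607 2.79 ± 0.0127 (SD, n = 2 each). The summit at CG31612 was the only one of the 10 strongest downstream of its start site, by 469 bp and within an intron. The cAMP phosphodiesterase gene dnc, 7 in rank, differed most of the 10 between libraries, with 1.52 in replicate 1 and 2.98 in replicate 2.

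Most members were seen in both libraries, less evenly in replicate 1. A library peak lay over the summit of 808 members in replicate 1 and of 819 in replicate 2, and 800 had both. The median relative signal was 0.950 in replicate 1 and 0.978 in replicate 2, and replicate 2 was the higher for 503 of the 800. The SD between libraries had a median of 15.3% of the mean. Across the 800 peaks Spearman's rho was 0.713 and Pearson's r of the log10 signal 0.699. These points share a list thresholded on both libraries, and each library list holds 30000 entries. That most members had a peak in both was therefore largely set by the choice of the list. When each library was cut to as many of its strongest peaks as the IDR list holds, 74.4% of members were among those of replicate 1 and 93.6% among those of replicate 2, with 576 in both and 14 in neither.

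Most of the largest differences between libraries were found at joined peaks. At 56 members a library peak also covered the summit of another IDR peak, so its signal is not theirs alone. Such peaks made up 4 of the 5 largest SDs relative to their mean: CG32262 had 0.243 in replicate 1 and 3.78 in replicate 2, Lrp4 1.37 and 19.3, Sptr 0.294 and 3.92, and Rad1 0.577 and 3.60. The other of these, a summit at cnc, a bZIP transcription factor gene, had 0.175 in replicate 1 and 1.11 in replicate 2 with peaks of its own. The highest library values of all members were also those of joined peaks, at RabGGTa and CG2201, which were picked out after their values had been seen. RabGGTa, with a pooled signal of 212.8, had no peak over the summit in replicate 1 and 119.8 in replicate 2. CG2201, with a pooled signal of 528.6, had 27.3 in replicate 1 and 30.6 in replicate 2.

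**Figure D1:**
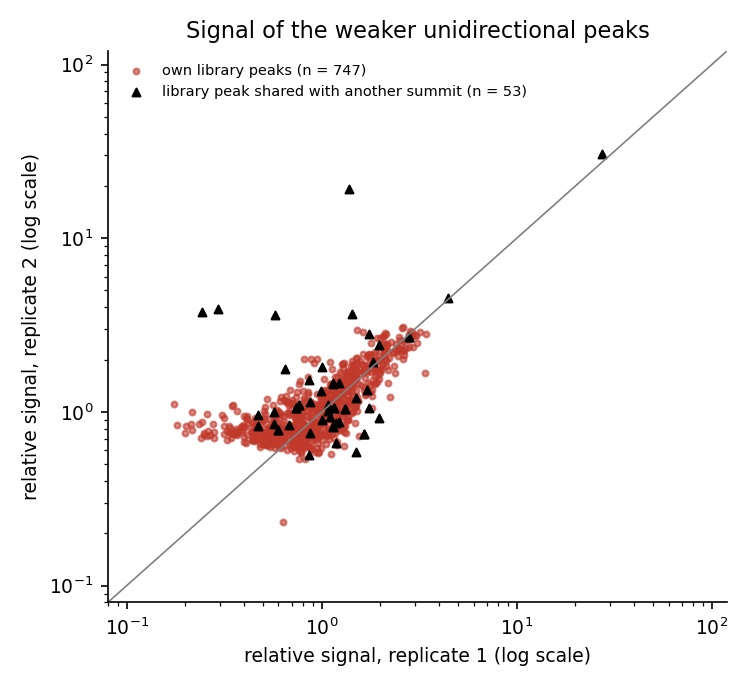
Relative signal of the 800 weaker unidirectional peaks with a peak over the summit in both libraries, replicate 1 on the horizontal and replicate 2 on the vertical log axis, 1 point per peak. Round points are 747 peaks with their own library peaks and triangles are 53 whose library peak also covers another IDR summit, and the grey line marks equal values. Most points lie along the line, the low end of replicate 1 spreads further than that of replicate 2, and the points far above the line are mostly triangles.

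Summits of the weaker unidirectional peaks lay before the start site. The median summit was 116 bp upstream, with quartiles of 233 and 28.5 bp upstream. Of the members 53.4% lay more than 100 bp upstream, 29.4% within the 100 bp before the start site, 8.46% within the 100 bp after it and 8.71% further downstream. There were 2 comparison sets: 916 weaker IDR peaks under the same limit at divergent promoters, and 4297 candidate peaks, which are peaks of the pooled list at unidirectional start sites that overlap no IDR peak. Candidates are weaker by definition, with signals of 38.5 to 178.8. The pooled list holds 30000 entries and was deposited as peaks and background for input to IDR. Some candidates may therefore be background and not weak sites of binding, and their share is not known. The median summit lay 65 bp upstream in divergent peaks and 28 bp upstream in candidates.

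Summits were upstream for 685 of 827 members, 82.8% (exact 95% interval of 80.1 to 85.3), and for 2415 of 4297 candidates, 56.2%. That is an odds ratio of 3.76 (3.10 to 4.58), with an adjusted p = 5.21e-50 by Fisher's exact test over the family of 10 tests of position and gene architecture. All tests of shares are two-sided. Against divergent peaks, 79.5% of which were upstream, the difference of 3.35 percentage points did not pass (odds ratio 1.25, 0.972 to 1.60, Fisher's exact test, adjusted p = 0.109). With replicate 1 alone it was 6.88 points (Fisher's exact test, adjusted p = 0.000557), and with replicate 2 alone 1.31 points (adjusted p = 0.522). For such values from 1 library, members and comparison peaks were chosen anew from that library's own list, so they are not the same peaks. A summit between the start sites of a divergent pair is upstream of both by definition. The tests against divergent peaks cannot separate that layout from where summits lie, and its part was not tested. Among the strong unidirectional peaks, at or above the limit of signal, the summit was upstream for 101 of 116, 87.1%. An upstream summit was therefore not particular to the weaker peaks, and members were not tested against strong peaks.

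A summit within 100 bp of the start site was found for 37.8% of members, against 62.7% of divergent peaks and 37.0% of candidates. The rule used this distance, so these shares are a description. A divergent promoter has more start sites within reach of its summit by definition, and the part of this in the difference was not tested. The difference from candidates, 0.845 percentage points, had no stable sign. It was 6.82 points with 1000 bp windows, -6.08 points for the 414 members at or above their median signal and -5.15 points against candidates above their own median.

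**Figure D2:**
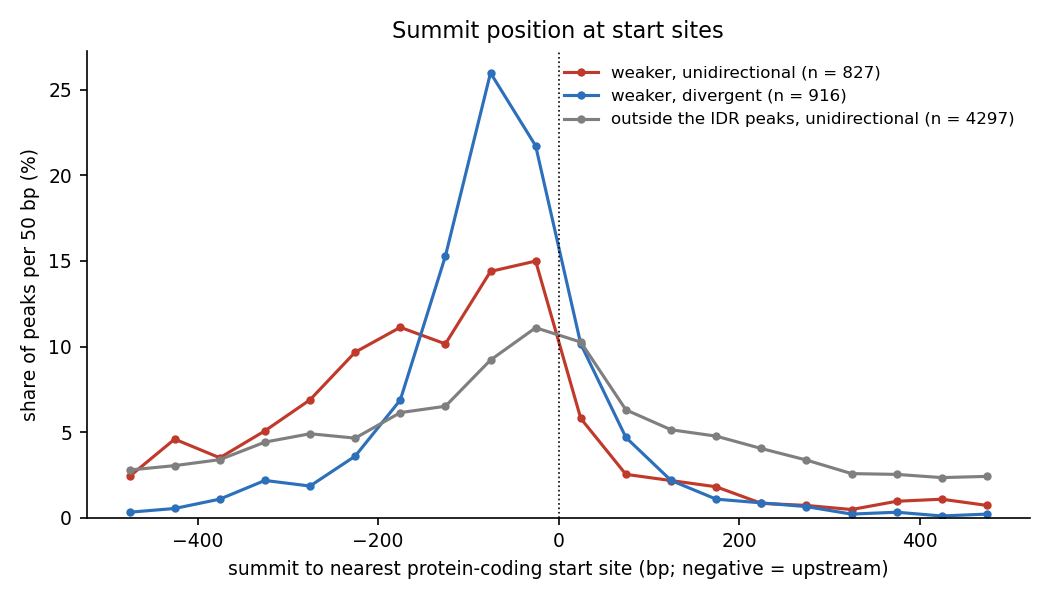
Share of peaks in each 50 bp bin (vertical axis, percent) by the distance of the summit to the nearest protein-coding start site (horizontal axis, bp, negative upstream) for the weaker unidirectional peaks, the weaker divergent peaks and the candidate peaks outside the IDR list. The weaker unidirectional peaks are spread over the 300 bp before the start site and drop after it, the divergent peaks crowd into the last 100 bp or so, and candidates extend on both sides.

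Few member summits lay in coding sequence. The summit was intergenic for 48.7% of members, intronic for 27.2%, in an exon outside the coding sequence for 20.7%, in a coding exon for 1.69% and in a noncoding gene alone for 1.69%. In candidates the coding exon share was 10.4%, the share of other exons 31.2% and the intergenic share 32.0%. This breakdown was not tested. Members were found on each large arm and on X, which held 145 (17.5%, against 12.01% of divergent peaks and 18.2% of candidates), and 4 lay on chromosome 4.

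The genes at these peaks were longer and had more start sites than those at divergent promoters. The gene spanned at least 10000 bp for 292 members, 35.3%, against 13.9% of divergent peaks (odds ratio 3.39, 2.66 to 4.33, Fisher's exact test, adjusted p = 3.53e-25). Another start site of the same gene lay over 500 bp away for 40.5% of members, against 27.4% of divergent peaks (odds ratio 1.80, 1.47 to 2.22, Fisher's exact test, adjusted p = 2.24e-08). In all 9 other definitions tried the same directions and calls held, but the sizes depend on how the rule is read. The rule looked for a partner at every start site of a gene, so a gene with more start sites had more chances of a partner. The share with another start site is therefore not independent of how members and divergent peaks were chosen, and the part of this was not tested. Where only partners of the start sites near the summit were counted, the difference in start sites was 30.2 percentage points in place of 13.1, and that in gene length 28.6 in place of 21.4. Candidates had a gene of that length at 32.0% of peaks and another start site at 39.7%, and neither share differed from that of members past the threshold (Fisher's exact test, adjusted p = 0.109 and 0.670). With replicate 1 alone the difference in gene length passed (4.97 points, Fisher's exact test, adjusted p = 0.0145). With only the strongest peak of each gene counted, a setting added after the data had been seen, both differences from candidates passed: 8.10 percentage points for gene length (Fisher's exact test, adjusted p = 1.95e-05) and 8.79 for start sites (adjusted p = 7.88e-06). Peaks of 1 gene are not independent, and candidates held 4297 peaks at 2887 genes.

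Some promoters without a coding partner had a noncoding one. A noncoding gene that starts within 1000 bp on the other strand and is transcribed away lay at 58 members, 7.01%, against 5.26% of candidates (odds ratio 1.36, 0.990 to 1.84, Fisher's exact test, adjusted p = 0.0930). It was an ncRNA gene in 49 cases, a pseudogene in 7 and a tRNA gene in 2. Examples by signal were Reg-5 with asRNA:CR43257 at 397 bp, unc-13, a synaptic vesicle priming gene, with the pseudogene CR43361 at 358 bp, CG2201 with lncRNA:CR43148 at 599 bp, and RpL17 with lncRNA:CR44895 at 641 bp. With 1 peak per gene the difference passed, at 2.14 points (Fisher's exact test, adjusted p = 0.0346). The end of another gene on the same strand lay within 1000 bp upstream for 44.4% of members, against 41.9% of candidates (Fisher's exact test, adjusted p = 0.256).

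Several genes carried more than 1 weaker unidirectional peak. There were 62 such genes with 131 peaks, and at 33 of them the summits lay over 500 bp apart. Hnf4, a nuclear receptor gene, had 4 peaks over 18193 bp, with pooled signals of 459.5, 235.4, 215.9 and 189.8, each 67 to 299 bp upstream of a start site of its own. The cAMP phosphodiesterase gene dnc had 3 over 73305 bp, with 815.2, 686.0 and 435.4, at 298, 274 and 332 bp upstream. Ptpmeg2, a protein tyrosine phosphatase gene, had 3 with 755.2, 559.4 and 453.9, at 189, 199 and 201 bp upstream. At dnc and Ptpmeg2 the distances to the start sites were alike, while those at Hnf4 varied more.

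Moe, which encodes the actin linker moesin, had 3 peaks with 330.9, 298.1 and 189.1, and cnc 3 with 281.0, 253.1 and 239.7. Other genes had close pairs. Of all members, 67 had another IDR summit at 190 to 230 bp, 11 at more than 230 and up to 500 bp, and the smallest distance was 199 bp. The caller is not given, so it is not known whether it sets a least distance between summits, and this was not tested. Each summit of a close pair was counted as a peak of its own. Among close pairs were Adh, the alcohol dehydrogenase gene (299.0 and 214.2), RapGAP1, a GTPase activator gene of Rap1 (779.0 and 278.5), and CG1142 (808.3 and 216.2). Members of such pairs at Adh and RapGAP1 share their library peaks, so that the same library values stand for both.

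Some promoter motifs differed in frequency between the weaker unidirectional peaks and the comparison sets. Motifs were searched on both strands within 100 bp of the summit. Motif 1 (M1BP) was read as GGTCACACT and the DRE as TATCGATA. Ohler motif 5 was read as the E-box CAGCTG, and the Myc-type E-box as CACGTG. Ohler motif 6 was read as GTATNTTT and Ohler motif 7 as CATCNCTA. The TATA box was read as TATAAA, which is its central part, the initiator as TCAGTT and its polypyrimidine form as CTTTTTC. The GAGA repeat was read as GAGAGAG, the Zelda site as CAGGTAG, the downstream promoter element (DPE) as AGACGTG and the Caudal site as TTTATGG. The CA repeat was read as CACACACA and a stretch of A as AAAAAAAA. A match is a description of the letters and not a bound site.

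GAGA repeats were more frequent in members than at divergent promoters. They were found in 61 members, 7.38% (5.69 to 9.37), against 20 divergent peaks, 2.18% (1.34 to 3.35), an odds ratio of 3.57 (2.10 to 6.30, Fisher's exact test, adjusted p = 4.15e-06 over 15 motifs). All start-site windows of the annotation held them in 4.67% and members' flanks, windows of the same width 1000 bp away on the left, in 3.39%. The strong unidirectional peaks held GAGA repeats in 3 of 116, 2.59%, close to the share at divergent promoters. GAGA matches lay a median of 72 bp from the summit in members and 69 bp in divergent peaks, towards the edge of the window. Within 50 bp of the summit members exceeded divergent peaks by 1.85 points (Fisher's exact test, adjusted p = 0.00825). Candidates, at 5.49%, were not distinguished from members (odds ratio 1.37, 1.01 to 1.84, Fisher's exact test, adjusted p = 0.146). That difference, 1.88 points, passed within 200 bp of the summit (4.79 points, Fisher's exact test, adjusted p = 0.00258), centred on the start site (3.78 points, adjusted p = 0.00719) and with 1000 bp windows (2.35 points, adjusted p = 0.0163). It was 0.117 points against candidates above their own median (Fisher's exact test, adjusted p = 0.937) and -0.453 points within 50 bp of the summit (adjusted p = 0.646). The strongest holders were CG1907, mrj, bun, a TSC22-family gene with 2.51 ± 0.0512, and the hexokinase gene Hex-A with 2.39 ± 0.173 (SD, n = 2 each). GAGA was found in 11.6% of the 292 members at genes of at least 10000 bp and in 5.05% of the 535 at shorter genes, a split made after the data had been seen and not tested.

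The DRE and Ohler motif 7, both housekeeping elements, were less frequent in members than at divergent promoters. The DRE was found in 44 members, 5.32% (3.89 to 7.08), against 108 divergent peaks, 11.8% (9.77 to 14.1), an odds ratio of 0.421 (0.285 to 0.612, Fisher's exact test, adjusted p = 1.15e-05). Ohler motif 7 was found in 39 members, 4.72%, against 91 divergent peaks, 9.93%, an odds ratio of 0.449 (0.296 to 0.669, Fisher's exact test, adjusted p = 0.000172). Start sites of more than 1 gene lay within 500 bp of the summit for 686 of 916 divergent peaks and 26 of 827 members. A divergent window can thus hold the promoter elements of more than 1 gene, and its summit was more often near a start site. The part of this layout in the motif differences from divergent peaks was not tested. Within 50 bp of the summit the difference for motif 7 did not pass (-1.29 points, Fisher's exact test, adjusted p = 0.319). Candidates held the DRE in 4.61% and motif 7 in 3.26% (Fisher's exact test, adjusted p = 0.506 and 0.146). The members' flanks held the DRE in 0.363% and motif 7 in 0.846%, and all start-site windows held them in 6.43% and 4.51%.

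The strongest holders of the DRE were genes of several kinds. By signal the first with the DRE were eEF1gamma, a translation elongation factor subunit with 2.44 ± 0.0345, CG11151 with 2.20 ± 0.206, EMC4, of the endoplasmic reticulum membrane complex, with 1.94 ± 0.270, and RpS10b with 1.95 ± 0.0496 (SD, n = 2 each). DRE matches in members lay a median of 36 bp upstream of the start site. In windows centred on the start site in place of the summit, the differences from divergent peaks also passed for the DRE (-6.86 percentage points, Fisher's exact test, adjusted p = 1.23e-05) and for GAGA (7.55 points, adjusted p = 2.07e-08).

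TATAAA was found more often at member summits than at candidate summits, but not at the start sites themselves. The letters lay within 100 bp of 260 member summits, 31.4% (28.3 to 34.7), against 22.5% of candidates (odds ratio 1.58, 1.33 to 1.86, Fisher's exact test, adjusted p = 1.30e-06) and 36.6% of divergent peaks (odds ratio 0.795, 0.648 to 0.975, adjusted p = 0.0976). The difference from candidates, 8.91 points, was 5.52 points with replicate 1 alone (Fisher's exact test, adjusted p = 0.0353) and did not pass within 200 bp of the summit (4.38 points, adjusted p = 0.0805). The difference from divergent peaks, -5.13 points, passed in 7 of 12 other settings, at -5.86 to -8.60 points. The letters lay a median of 184.5 bp upstream of the start site, and 185 of 365 matches were on the strand of the gene. In windows centred on the start site the order turned round: members minus candidates gave -5.09 points (Fisher's exact test, adjusted p = 0.00719). In the interval of 16 to 40 bp upstream on the gene's strand, looked at after the data had been seen, 2.30% of members, 2.18% of divergent peaks, 5.66% of candidates and 6.75% of all start sites held TATAAA.

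Base composition moved with this motif. The median GC content of the windows around summits was 37.3% in members, 35.8% in divergent peaks and 41.8% in candidates. Where GC was under 35%, TATAAA was found in 49.2% of members and 44.1% of candidates. From 35 to 40% it was found in 29.4% of members and 27.7% of candidates, and from 40 to 45% in 22.8% of members and 19.2% of candidates. From 45% up it was found in 7.88% of members and 9.95% of candidates. The gap of all windows was thus larger than that in any single band. The part of GC content in the result was not tested further.

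**Figure D3:**
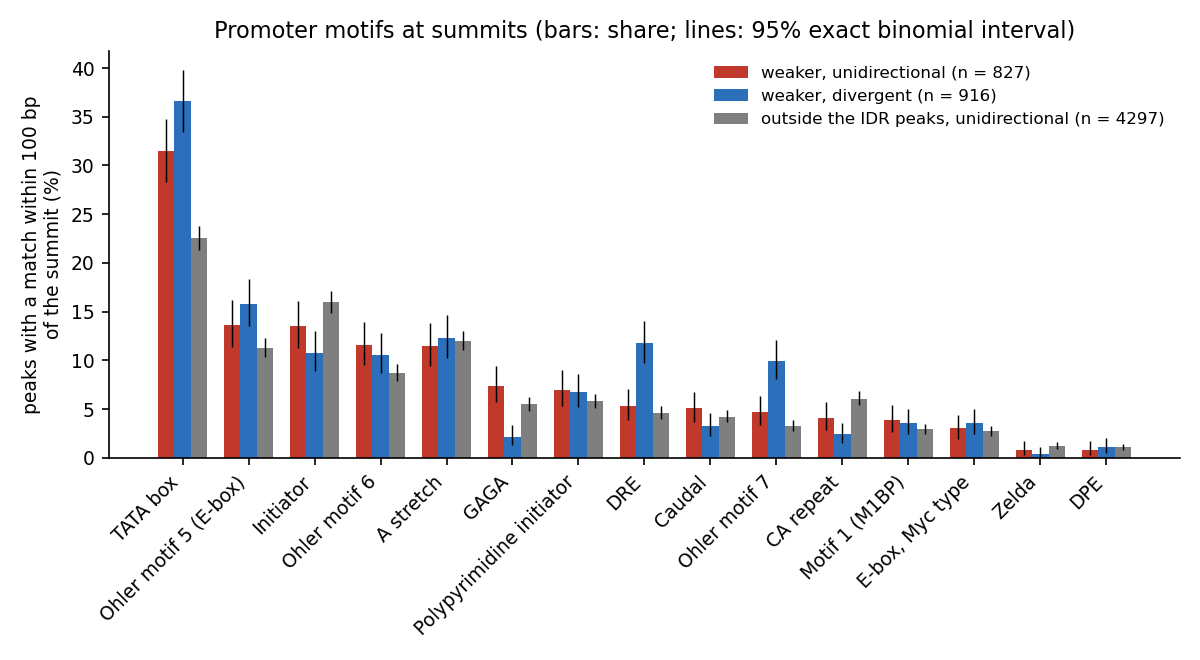
Share of peaks with each of 15 promoter motifs within 100 bp of the summit (vertical axis, percent) in the weaker unidirectional peaks, the weaker divergent peaks and the candidate peaks, with 95% exact binomial intervals as lines. GAGA stands higher in the weaker unidirectional than in the divergent peaks (7.38% and 2.18%), the DRE and Ohler motif 7 stand lower, and TATAAA lies between both sets.

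Of the words that led in the strong peaks, those with G and C were found in few of the weaker unidirectional ones. Words of 8 bases were ranked in the 202 start-site peaks at or above the limit of signal, none of which is a member, and the 5 best were looked up in the members. AGCTTTTG was found in 2.78% of members, against 14.4% of the strong peaks, 1.98% of the flanks of the strong peaks and 1.89% of candidates. Members and candidates were not distinguished (odds ratio 1.49, 0.888 to 2.41, Fisher's exact test, adjusted p = 0.105 over 5 words). AATCAGCT was found in 2.54% of members, against 9.90% of the strong peaks and 1.68% of candidates (members against candidates, Fisher's exact test, adjusted p = 0.105). The other 3 words are made of A and T only and were more frequent in members than in candidates: AAAAAATA in 12.1% of members against 7.49% of candidates (odds ratio 1.70, Fisher's exact test, adjusted p = 0.000154), AAATAAAT in 10.9% of members against 7.66% of candidates (odds ratio 1.47, adjusted p = 0.00703, but 0.0786 within 50 bp of the summit) and ATTTTAAA in 7.74% of members against 5.24% of candidates (odds ratio 1.52, adjusted p = 0.0107). In the strong peaks their shares were 12.9% for AAAAAATA, 11.4% for AAATAAAT and 15.8% for ATTTTAAA, and no test was made of members against strong peaks. In the weaker divergent peaks the shares were 10.5% for AAAAAATA, 15.1% for AAATAAAT and 10.5% for ATTTTAAA, also without a test. These words were therefore not particular to the members. The lower GC content of members than of candidates goes with these 3 words too, and its part was not tested.

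A ranking of words in the members themselves, which carries no test, was led by A and T. Of the 100 words with the largest difference in share from candidates, 73 held only A and T, as did 18 of the first 20. CAACACTG, ranked 10, was found in 46 members, 5.56%, against 8.73% of divergent peaks, 1.63% of candidates and 1.72% of the strong unidirectional peaks. Its share was 0.726% in the members' flanks and 2.61% in all start-site windows. Of its 48 matches in members 32 were on the strand of the gene, at a median of 44.5 bp upstream of the start site and 27.5 bp from the summit. It was found in 3 of the 19 members at ribosomal protein genes (RpL23A, RpL17 and RpS3A) and in 43 of the other 808. It was found in 5.07% of the members at or above the median signal and in 6.05% of those under it.

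CACAGTGG was found in 39 members, 4.72%, against 2.07% of divergent peaks, 1.35% of candidates and 0.816% of all start-site windows. In the strong unidirectional peaks CACAGTGG was found in 4 of 116, 3.45%. Its matches lay further out, at a median of 155 bp upstream of the start site. The strongest holders of CACAGTGG on the arms shown above were RapGAP1 at 2.75 ± 0.0781, mrt at 2.52 ± 0.243 and CG31808 at 2.30 ± 0.197 (SD, n = 2 each).

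Genes of the cytosolic ribosome were frequent among the genes at these peaks. The 3614 unidirectional genes with any pooled peak within 500 bp of a start site, deposited background included, served as the comparison. A weaker unidirectional peak lay within 500 bp of a start site of 783 of them, a background share of 21.7%. Of 29 such ribosomal protein genes 19 had one, 65.5% (exact 95% interval of 45.7 to 82.1), and their median pooled signal was 373.8, against 267.8 over all members. That these genes are often bound in the whole list was known when the list was chosen, so the count is not independent evidence. RpL23A, with 2.81 in replicate 1 and 2.36 in replicate 2, RpL11 with 1.96 and 2.04, and RpS10b with 1.91 and 1.98 had the highest signals. RpS3, RpL12 and RpS30 had the lowest, with pooled signals of 188.3, 192.4 and 207.0. All 19 summits lay from 68 bp upstream to 45 bp downstream of the start site, while the quartiles over all members were 233 and 28.5 bp upstream.

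Translation factors had 7 of 17, with eEF1gamma, the ribosome translocase eEF2 at 1.37 ± 0.219 and eIF2Bgamma, of the eIF2 exchange factor, at 1.11 ± 0.113 (SD, n = 2 each). Other housekeeping lists had fewer. There was 1 of 10 mitochondrial ribosomal protein genes (mRpL9), 1 of 24 of the respiratory chain and ATP synthase (ND-B22), 0 of 6 aminoacyl-tRNA synthetases and 0 of 8 proteasome subunits. For the last pair the exact intervals reach 45.9% and 36.9%. Of 14 genes of the transcription machinery 4 had a peak, led by the Mediator subunit gene MED4 at 1.54 ± 0.365 (SD, n = 2), and of 8 splicing factors 2, led by mbl, the muscleblind gene, at 1.62 ± 0.188 (SD, n = 2).

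Shares in the signalling lists were above the background, with wide intervals that contained it. Of 23 genes in the list of receptor tyrosine kinase and Ras signalling 9 had a peak (39.1%, 19.7 to 61.5). As drawn up, this list holds sgg, the kinase GSK3, which was not counted in the Wnt list below. The highest signals were at sgg, with 2.78 ± 0.421, and Pi3K21B, a regulatory subunit of PI3 kinase, with 1.80 ± 0.101 (SD, n = 2 each). The third was aos, a secreted inhibitor of the EGF receptor, whose stronger summit had no peak in replicate 1 and a library signal of 261.7 in replicate 2. Of 8 Notch pathway genes 4 had a peak (15.7 to 84.3%). They included the target E(spl)m3-HLH, with a library signal of 120.4 in replicate 1 and no peak in replicate 2, the Notch inhibitor numb at 1.36 ± 0.171 and the corepressor gro at 0.787 ± 0.220 (SD, n = 2 each). The receptor gene N itself had the second lowest signal of all members. The Wnt, Hedgehog, Dpp, JAK/STAT and Hippo list had 7 of 24, with the Dpp pathway zinc finger gene shn at 1.70 ± 0.0775 and Mer, the merlin gene, at 1.19 ± 0.0165 (SD, n = 2 each).

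The intervals of the lists of chromatin and transcription regulators also contained the background share. Of 24 insulator, zinc finger and BTB genes 9 had a peak (37.5%, 18.8 to 59.4), with the BTB gene lola at 1.45 ± 0.445, row at 1.20 ± 0.480 and Sry-delta at 1.29 ± 0.224 (SD, n = 2 each). In replicate 1 the library peak at row also covers another summit of that gene. Of 19 chromatin regulators 6 had one (31.6%), with the SAGA subunit gene Ada2b at 1.74 ± 0.194 and the Polycomb group gene esc at 0.799 ± 0.254 (SD, n = 2 each). Heat shock proteins and chaperones had 3 of 7. These were the small heat shock protein genes Hsp27 at 2.78 ± 0.0358 and Hsp26 at 1.15 ± 0.0255, and stv, whose stronger summit had 1.16 ± 0.230 (SD, n = 2 each). Embryonic patterning genes had 2 of 13, fkh and the heart gene tin, at 1.28 ± 0.183 and 1.27 ± 0.360 (SD, n = 2 each).

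The remaining lists had 5 of 19 for the cytoskeleton, led by Moe, 5 of 29 for Rab and membrane traffic, led by the syntaxin gene Syx4 at 1.62 ± 0.238, 2 of 17 for the cell cycle, led by the cyclin gene CycE at 1.44 ± 0.544, 3 of 28 for adhesion and polarity, led by the integrin gene scb at 0.960 ± 0.112, and 2 of 21 for ubiquitin conjugation (SD, n = 2 each). Cuticle proteins had 0 of 12 and odorant and gustatory receptors 0 of 13, with exact intervals that reach 26.5% and 24.7%. No list was tested.

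**Figure D4:**
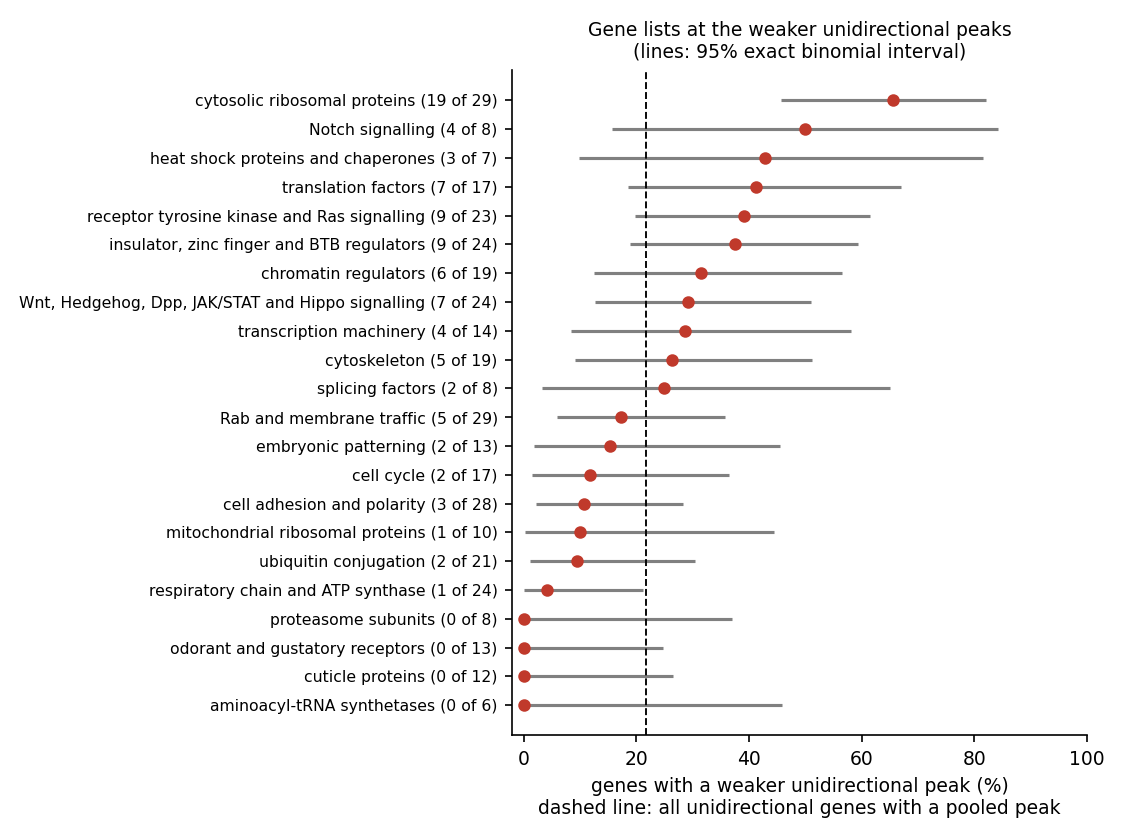
Share of the unidirectional genes with a pooled peak that had a weaker unidirectional peak (horizontal axis, percent) for 22 gene lists, with 95% exact binomial intervals as lines and the share over all such genes, 21.7%, as the dashed line. The interval of the cytosolic ribosomal proteins (19 of 29) lies above the line and that of the respiratory chain (1 of 24) below it, and the other 20 intervals contain it.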

How the data were processed

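Peaks were deposited by the authors as lists in narrowPeak format, on dm6 and dm3. Each deposited peak has a signal, on the scale of the authors' caller, and a summit offset. The deposited text says that lists derive from alignments and a control. The caller, the IDR threshold, the depth and its scaling: not given in the sources used here. The IDR list holds 3290 peaks, and the limit on signal was 852. The dm6 lists were used, with the dm3 IDR list for a count alone, and 1 pooled peak outside the arms was left out. Start sites came from Ensembl release 115 (BDGP 6.54). Library signals are those of the strongest library peak over a summit. Fisher's exact test, two-sided, compared shares of peaks. P-values were adjusted by Benjamini and Hochberg's method over 10 tests of position and architecture, 15 motifs per comparison, or 5 words. The p-values of the share within 100 bp of a start site, a distance that the rule used, are not printed. Peaks are the units of these tests, so p-values do not measure spread between embryos, and intervals cover counting error only. The noncoding partner and the upstream gene end were not tested against divergent peaks, whose definition constrains them, a choice made after values were seen. Named genes are the 10 strongest and 5 weakest members, 3 peaks on each side of the limit, the 5 largest SDs between libraries relative to their mean, up to 3 per gene list and the strongest motif holders. Others, and the motifs whose single alternatives were computed, were chosen after their values were seen. Members, lists, motifs and tests were chosen with earlier results of these data known. The motif test was checked on simulated data. Python 3.11.15, numpy 2.4.6, pandas 2.3.3, scipy 1.17.1 and matplotlib 3.10.9 were used.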

Additional observations from a re-analysis of the deposited data

How the results depend on the processing

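No paired analysis was possible because both libraries form 1 group. The number of members, 827, was 414 at or above their median signal and stayed between 610 and 996 under the other definitions. Without 1 replicate the number was 766 to 848. Differences are in percentage points, members minus comparison peaks. The higher upstream share against candidates held in all 11 settings tried for it. Against divergent peaks it ranged from 1.31 to 6.88 without 1 replicate, passing without replicate 2, and was 6.51 for these 414, which were chosen by signal. The share within 100 bp of the start site against candidates was 0.845 and turned to -2.98 with 250 bp windows, -6.08 for the 414 members, -5.15 against candidates above their own median, -0.443 by partners of the near start site only and -2.13 with 1 peak per gene. It was 6.82 with 1000 bp windows, and -0.540 to 2.84 without 1 replicate. Of 4 architecture shares against candidates 0 passed, but 1 did with 250 bp windows and 1 for the 414 members, 2 with 1000 bp windows and 3 with 1 peak per gene, and 0 to 3 without 1 replicate. Other start sites turned to -0.896 with 250 bp windows and -0.0692 against candidates above their median, and upstream gene ends to -2.56 for the 414 members and -0.859 with 1 peak per gene. Of 15 motifs 1 passed against candidates, but 5 with 1000 bp windows, 3 with partners within 500 bp, 2 within 50 bp of the summit, 3 centred on the start site and 4 by partners of the near start site only. Against divergent peaks 3 passed, but 8 within 200 bp of the summit, 6 centred on the start site and 6 by partners of the near start site only. The DRE against candidates turned to -0.0185 (the 414 members), -0.822 (candidates above their median), -0.105 (within 50 bp), -0.764 (centred on the start site) and -0.369 (1 peak per gene), GAGA to -0.453 within 50 bp, and TATAAA to -5.09 centred on the start site. DRE and GAGA against divergent peaks passed in every setting tried. The cause of these changes was not tested. The settings by partners of the near start site and with 1 peak per gene were added after the data had been seen. Depth is unknown, so no limit from read counts can be given.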
